A study of Mus musculus with 15 samples.

Results

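A set of 9 genes that mark mesothelium was followed in the islets of NOD mice: Msln, Upk3b, Upk1b, Wt1, Lrrn4, Gpm6a, Bnc1, Muc16 and Krt19. All 9 have a row in the count table of 48709 genes, and 6 of them (Msln, Upk3b, Wt1, Lrrn4, Gpm6a and Krt19) had enough counts for a test. Msln was chosen by its own values, as one of the largest decreases between 4 and 12 weeks of age, and the other 8 genes were taken to ask whether they decrease with it. The samples were islets of 15 NOD females, a strain that develops autoimmune diabetes, with 3 mice at each of 5 ages, every 2 weeks from 4 to 12 weeks. All the mice shared the NOD genotype, and the labels name no treatment. According to the study's methods, islets were isolated with collagenase on a density gradient and picked by hand, so a sample also holds whatever other cells stayed with the islets.

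Mesothelium is the flat epithelium that covers the pancreas and the other organs of the body cavities. Msln encodes mesothelin, a glycoprotein anchored to the surface of mesothelial cells, and Muc16 encodes a large membrane mucin that binds mesothelin. Upk3b and Upk1b are uroplakins, Wt1 and Bnc1 encode zinc-finger transcription factors, and Lrrn4 and Gpm6a encode membrane proteins, Gpm6a being known best from neurons. Krt19 is a keratin of simple epithelia, shared with pancreatic duct and intestine. None of these genes is known as a marker of islet endocrine cells, the main cells of the sample.

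The levels at 4 weeks went against reading Msln as a sign of mesothelium in these samples. Where Msln was highest, at 4 weeks, the more restricted mesothelial genes were at or near 0: Muc16 had 0 counts in all 3 mice, and Upk3b, Upk1b, Wt1, Lrrn4 and Bnc1 had at most 2 counts in any of them. Msln had 3584 to 4182 counts in the same mice. The 9 genes are therefore described gene by gene, and the tissue name is kept for the list only.

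Total counts per sample ran from 25407492 to 41616275 with a median of 28004882, and 3 counts, taken as the floor, corresponded to 0.0754 to 0.128 CPM (a gene's share of the TMM-scaled library, per 1000000 reads). A pair of libraries stood apart. Replicate 2 at 6 weeks and replicate 1 at 12 weeks held intestinal transcripts, with a summed level of 8 intestinal genes of 48.5 and 354 CPM against 0.286 to 1.62 CPM in the other 13 mice. Results that rest on them are given with and without them.

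The sequences just before the start of Upk3b and Lrrn4 are shown because these 2 genes, together with Wt1, were near 0 at 4 weeks and higher at 12 weeks, the opposite of Msln. They are the 250 bases before the start in RefSeq (GRCm38.p6), chr5:136038246-136038495 on the plus strand for Upk3b and chr2:132880863-132881112 on the minus strand for Lrrn4, whose last bases overlap the start of the gene in the deposited coordinates. Capitals mark GGAATG, read on either strand, the core letters of sites bound by TEAD factors.
Upk3b: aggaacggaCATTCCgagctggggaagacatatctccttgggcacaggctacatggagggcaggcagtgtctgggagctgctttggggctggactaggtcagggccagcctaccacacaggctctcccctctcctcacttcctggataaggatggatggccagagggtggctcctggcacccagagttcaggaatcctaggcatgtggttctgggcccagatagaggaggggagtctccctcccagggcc
Lrrn4: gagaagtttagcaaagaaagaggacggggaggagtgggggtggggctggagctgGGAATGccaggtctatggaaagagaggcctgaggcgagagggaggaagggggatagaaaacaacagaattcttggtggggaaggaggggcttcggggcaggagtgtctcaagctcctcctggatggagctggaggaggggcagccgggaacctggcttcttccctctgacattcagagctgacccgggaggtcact
Each held 1 match, and 12.6% of the 32851 promoter windows in the same table held at least 1. Neither window held GCGTGGGNG, a motif bound by Wt1 (1.65% of windows, either strand), or TATAAA (12.4%). The table held windows for 5 of the 9 genes, and Gpm6a, with 2 windows, had 1 GGAATG and 1 TATAAA match, while Bnc1 and Muc16 had none of the 3. The searched motifs do not overlap each other in these windows. No window was in the table for Msln, Upk1b, Wt1 or Krt19.

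Msln (ENSMUSG00000063011, chr17:25748614-25754327 on the minus strand, mm10 per the labels) was lower at each later age on average. At 4 weeks it had 138, 179 and 130 CPM in replicates 1 to 3, and at 6 weeks 68.2, 118 and 84.7 CPM. At 8 weeks it had 44.3, 41.3 and 52.8 CPM, at 10 weeks 28.0, 37.4 and 50.1 CPM, and at 12 weeks 14.1, 23.03 and 16.7 CPM. Every mouse of 4 weeks lay above every mouse of 6 weeks, every mouse of 6 weeks above every mouse of 8 weeks, and every mouse of 12 weeks below every mouse of 10 weeks. Only 8 and 10 weeks overlapped among neighbouring ages. In bulk samples, fewer cells of a type and less RNA per cell cannot be told apart.

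The decrease from 4 to 12 weeks chose the gene, so it is given as a description. The log2 fold change of Msln was -3.05 (SE 0.264), 8.28-fold lower at 12 weeks, which ranked 5 among 16554 genes tested by the size of the decrease. Most genes around it in that ranking had low levels: 3830406C13Rik, Plac9a, Drd2 and Duxbl2 had 13.6, 1.40, 0.382 and 1.11 CPM at 4 weeks. Among the 1712 genes with a mean of at least 100 CPM at 4 weeks, Msln ranked 1. The steps that share mice with this comparison had log2 fold changes of -0.72 (6 against 4 weeks) and -1.10 (12 against 10 weeks).

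Mice of 6, 8 and 10 weeks were not used in choosing Msln. Between 6 and 10 weeks Msln fell by 1.23 on the log2 scale (SE 0.247), 2.35-fold, with an adjusted p of 0.00288 in edgeR's quasi-likelihood test with Benjamini-Hochberg adjustment over all genes. Under 13 alternative settings the adjusted p ran from 6.54e-06 to 0.0186. The step from 6 to 8 weeks gave -0.97 (SE 0.246, unadjusted p = 0.00177, adjusted p = 0.162 by the same test), and it passed the study's threshold of a fold change of 1.5 with an unadjusted p under 0.05. From 8 to 10 weeks the log2 fold change was -0.26 (SE 0.245, unadjusted p = 0.304), and the groups overlapped.

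**Figure D1:**
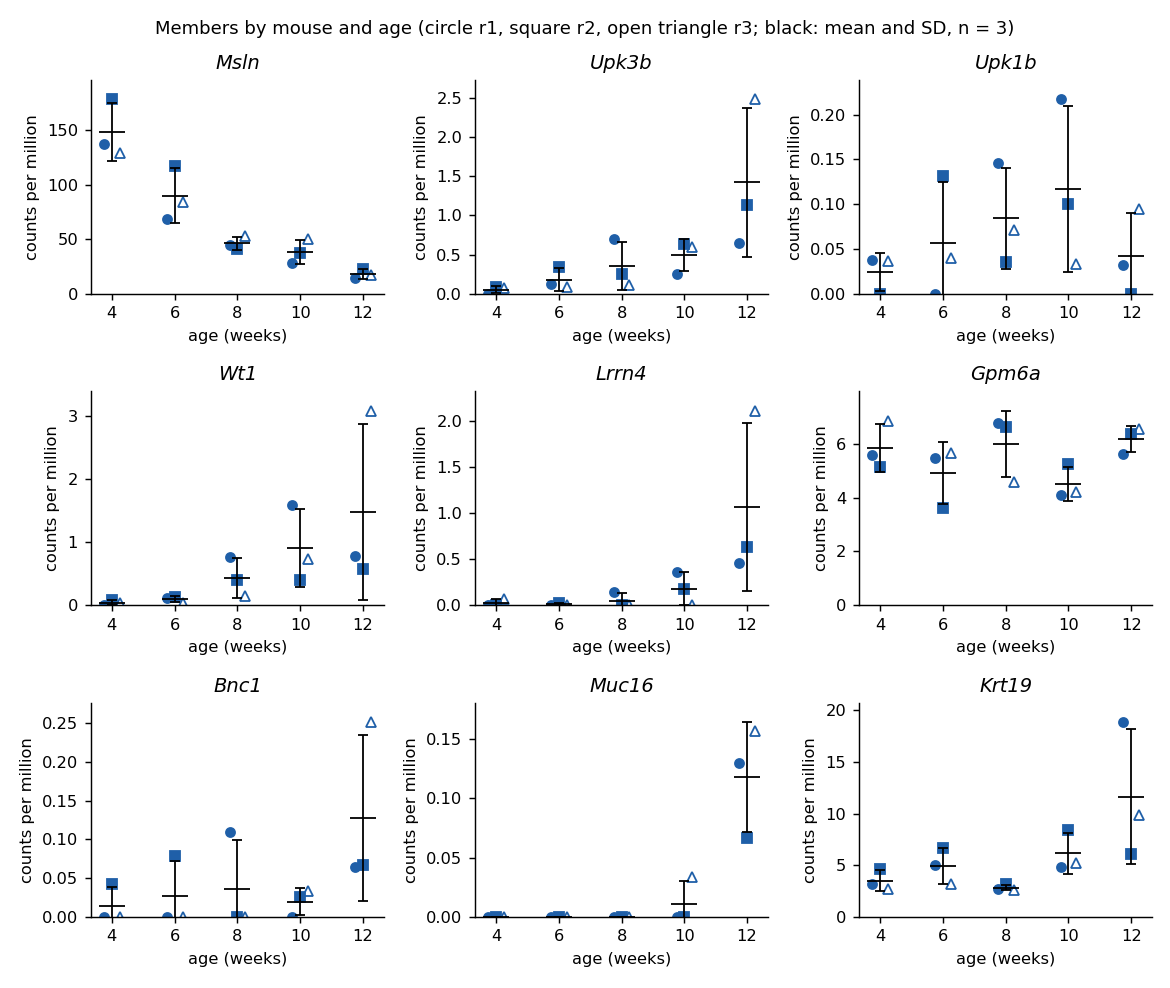
CPM (linear y axes that start at 0 and differ between panels) of the 9 genes in each of the 15 mice against age in weeks, with circles, squares and open triangles for replicates 1, 2 and 3 and black bars for the mean and SD of 3 mice (cut off at 0). Msln goes from a mean of 149 CPM at 4 weeks to 18.0 CPM at 12 weeks, while Upk3b, Wt1, Lrrn4 and Krt19 have their highest means at 12 weeks.

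Upk3b, the uroplakin most used to recognise mesothelium, had 0, 2 and 2 counts in the mice of 4 weeks and 3, 13 and 2 at 6 weeks. It had 19, 7 and 3 counts at 8 weeks, 7, 25 and 18 at 10 weeks, and 20, 34 and 79 at 12 weeks. The 12-week mice lay above the 4-week mice with no overlap, and replicate 3 was the highest. The summed counts, scaled to library size, were 27.9 times higher at 12 than at 4 weeks (133 against 4 counts, 95% exact interval 10.7 to 104, counting error only), and 17.3 times higher without replicate 3 of 12 weeks. In the mice that the choice of Msln did not use, the log2 fold change from 6 to 10 weeks was 1.36 (SE 0.777, adjusted p = 0.167, edgeR) and the groups overlapped. Without the libraries that held intestinal transcripts it was 2.29 (adjusted p = 0.0803).

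Wt1, a regulator of mesothelial identity, had 0, 2 and 1 counts at 4 weeks and 3, 5 and 1 at 6 weeks. At 8 weeks it had 21, 11 and 4 counts, at 10 weeks 44, 16 and 22, and at 12 weeks 24, 17 and 98. The mice of 10 weeks lay above those of 6 weeks with no overlap. Wt1 rose between 6 and 10 weeks, with a log2 fold change of 3.11 (SE 0.908, adjusted p = 0.0147, edgeR; 0.0164 in the fit without the filter on low counts). Wt1 passed that filter through the later ages, where it is high, and the change rests on 9 counts at 6 weeks. The call was lost without replicate 3 of 6 weeks (adjusted p = 0.0503, edgeR) or replicate 1 of 10 weeks (adjusted p = 0.0676, edgeR). The change from 6 to 8 weeks was 2.07 (SE 0.949, unadjusted p = 0.0486, adjusted p = 0.275, edgeR), and it no longer passed the study's threshold without replicate 1, 2 or 3 of 6 weeks or replicate 1 or 2 of 8 weeks (unadjusted p = 0.0623 to 0.203, edgeR). As a description, the summed counts were 38.9 times higher at 12 than at 4 weeks (139 against 3 counts, 95% exact interval 13.0 to 191), and 17.5 times higher without replicate 3 of 12 weeks.

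Lrrn4, a leucine-rich repeat membrane protein of mesothelium, had 0, 0 and 2 counts at 4 weeks, 0, 1 and 0 at 6 weeks and 4, 0 and 0 at 8 weeks. It had 10, 7 and 0 counts at 10 weeks and 14, 19 and 67 at 12 weeks. All 3 mice of 12 weeks lay above all 12 younger mice. The ratio of the summed counts between 12 and 4 weeks was 42.0 (100 against 2 counts, 95% exact interval 11.3 to 352), and 21.1 without replicate 3 of 12 weeks. From 6 to 10 weeks the fitted log2 fold change was 3.56 (SE 1.65, adjusted p = 0.0949, edgeR), from 17 against 1 counts. Without replicate 3 of 10 weeks, the mouse with 0 counts, it was 4.12 (adjusted p = 0.0344, edgeR). Leaving out any other mouse of 6 or 10 weeks gave 2.70 to 5.38 and no call (adjusted p = 0.144 to 0.281, edgeR).

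The remaining low genes gave little to compare. Upk1b had 0 to 6 counts in every mouse, with 4 counts in all at 12 weeks against 2 at 4 weeks (ratio 1.68, 95% exact interval 0.241 to 18.6), and 1 against 2 counts without replicate 3 of 12 weeks (ratio 0.640, interval 0.0108 to 12.3), so no direction can be given. Bnc1 had 2, 2 and 8 counts at 12 weeks against 0, 1 and 0 at 4 weeks (ratio 10.1, interval 1.49 to 431). Without replicate 3 of 12 weeks the ratio was 5.12 (interval 0.506 to 252). The exact intervals of this gene and the others hold counting error only, not the spread between mice. In the fit without the filter, which includes that spread, Bnc1 was not called (2.93, SE 1.46, adjusted p = 0.135, edgeR). Muc16, the mesothelin-binding mucin, had 4, 2 and 5 counts at 12 weeks, 1 count in a single mouse of 10 weeks and 0 in the other 11. Against a floor of 3 counts over the 4-week group it was at least 3.08-fold higher at 12 weeks. None of these 3 genes had enough counts to pass the filter, and no gene with counts overlaps any of the 9 genes.

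**Figure D2:**
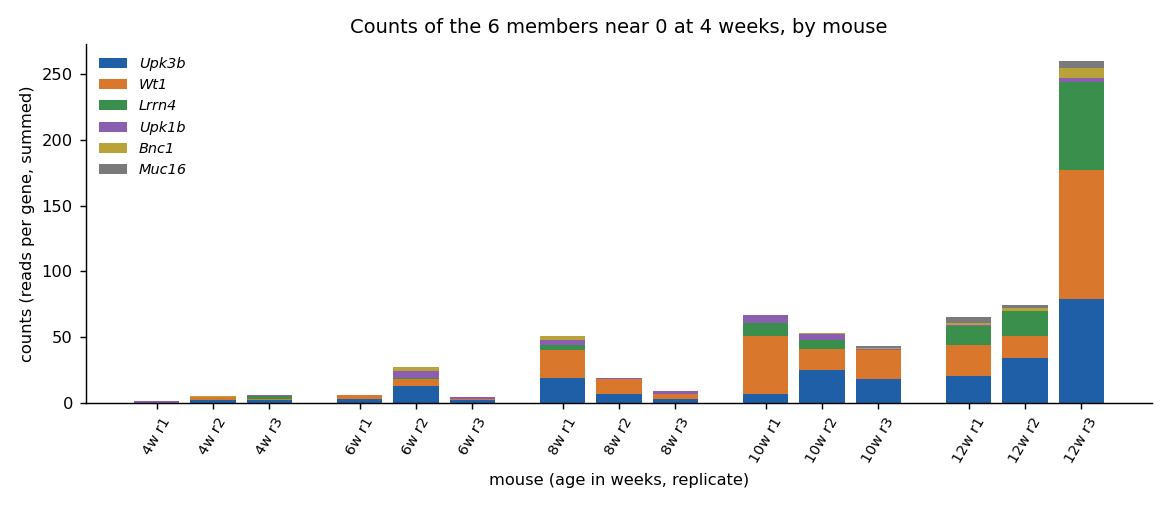
Counts (y axis, reads per gene, not scaled to library size) of Upk3b, Wt1, Lrrn4, Upk1b, Bnc1 and Muc16, stacked for each of the 15 mice in order of age. The sum is 1, 5 and 6 counts at 4 weeks and 65, 74 and 260 counts at 12 weeks, where replicate 3 stands above the other mice.

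Together these 6 genes summed to 0.0374 to 0.217 CPM at 4 weeks, 0.158 to 0.710 at 6 weeks, 0.321 to 1.86 at 8 weeks, 1.33 to 2.42 at 10 weeks and 2.11 to 8.17 at 12 weeks. Between mice of the same age, the deviations of log2 CPM from the age mean moved together in Upk3b and Wt1 (Pearson's r = 0.57), Wt1 and Lrrn4 (r = 0.63) and Upk3b and Lrrn4 (r = 0.43), a description over 15 mice that share libraries and rest on few counts. Krt19, also higher at 12 weeks, had r = 0.15 with Upk3b, 0.08 with Wt1 and -0.12 with Lrrn4. The fibroblast, leukocyte and lymph node stroma lists were higher at 12 than at 4 weeks, as was the sum of the 6 genes. The endocrine list was lower, and the acinar list overlapped between these ages. The summed level of 10 fibroblast genes was 363 to 598 CPM at 4 weeks and 1357 to 2141 CPM at 12 weeks, where replicate 3 had the highest value. At 8 weeks the mice were in the reverse order. Replicates 1 to 3 had 1.86, 0.677 and 0.321 CPM of the 6 genes and 659, 999 and 1122 CPM of the fibroblast genes. The summed level of 11 leukocyte genes was 34.7 to 191 CPM at 4 weeks and 1619 to 1896 CPM at 12 weeks. At 8 weeks it was 138, 558 and 806 CPM in replicates 1 to 3, also the reverse order. The part of any of these cell types in the counts of Upk3b, Wt1 and Lrrn4 was not tested.

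Krt19, the epithelial keratin, had 84, 108 and 75 counts at 4 weeks, 126, 253 and 80 at 6 weeks and 75, 88 and 73 at 8 weeks. It had 132, 336 and 157 counts at 10 weeks and 581, 183 and 315 at 12 weeks. The 2 highest of these levels, 18.8 and 9.90 CPM, were in replicates 1 and 3 of 12 weeks, and replicate 1 is one of the libraries with intestinal transcripts. The difference between 12 and 4 weeks was 1.74 on the log2 scale (SE 0.396), and 1.20 without both libraries, with all mice of 12 weeks above those of 4 weeks. Between 8 and 10 weeks Krt19 passed the study's threshold, with a log2 fold change of 1.12 (SE 0.395, unadjusted p = 0.0142, adjusted p = 0.0646, edgeR), and not without replicate 2 of 10 weeks (unadjusted p = 0.075). From 6 to 8 weeks it was -0.81 (SE 0.396, unadjusted p = 0.0626, edgeR) and from 6 to 10 weeks 0.31 (SE 0.385, adjusted p = 0.527, edgeR). Without both libraries with intestinal transcripts the change from 6 to 10 weeks was 0.60 (adjusted p = 0.187, edgeR). The change from 6 to 8 weeks did not pass the study's threshold there either. The part of intestinal tissue in Krt19 was not tested.

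Gpm6a, a membrane glycoprotein of neurons and mesothelium, showed no change that passed a test. It had 5.13 to 6.84 CPM at 4 weeks, 3.60 to 5.68 at 6 weeks, 4.57 to 6.78 at 8 weeks, 4.09 to 5.25 at 10 weeks and 5.64 to 6.54 at 12 weeks. The ages 4 and 12 weeks overlapped, with a log2 difference of 0.08 (SE 0.204), while every mouse of 12 weeks lay above every mouse of 10 weeks (log2 difference 0.45, SE 0.204, a description). The changes in the mice not used for Msln were 0.29 (SE 0.205) from 6 to 8 weeks, -0.41 (SE 0.205) from 8 to 10 weeks and -0.11 (SE 0.205, adjusted p = 0.674, edgeR) from 6 to 10 weeks, and none passed the study's threshold.

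Levels of different genes are compared per length, in TPM (transcripts per 1000000, scaled by the authors). At 4 weeks Msln had 135 ± 20.4 TPM (SD, n = 3), Krt19 3.60 ± 0.933, Gpm6a 3.50 ± 0.547 and Upk3b 0.0280 ± 0.0244 TPM. Krt19 and Gpm6a overlapped, and Msln stood above both in every mouse. At 12 weeks Msln had 21.3 ± 5.28 TPM, Krt19 15.6 ± 8.24, Gpm6a 4.84 ± 0.636, Upk3b 1.04 ± 0.761, Lrrn4 0.747 ± 0.681 and Wt1 0.623 ± 0.624 TPM. Msln and Krt19 then overlapped, and so did Upk3b, Lrrn4 and Wt1, whereas every value of Gpm6a lay between those 2 groups.

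The counts over the list are a description for 12 against 4 weeks, since these ages chose Msln. Between 12 and 4 weeks, 1 of the 6 genes tested was lower with an adjusted p under 0.05 (Msln, which the choice fixed) and 4 were higher (Upk3b, Wt1, Lrrn4 and Krt19), against 27.2% of all genes lower and 26.3% higher. Upk3b, Wt1 and Lrrn4 passed the filter on low counts through the ages where they were high. Nothing is therefore read from this count or from the median of the 6 genes. Over the 6 genes tested the median log2 fold change was 3.21, and over all 9 genes without the filter it was 2.93, or 1.73 with Muc16 at its bound, against -0.05 over all genes tested. Of the 9 genes, 8 had a fitted value above 0 and Msln alone lay below 0, where 53.8% of all genes tested lay below 0. Among the 8, Gpm6a (0.08, SE 0.204, in the filtered fit) and Upk1b (0.66, SE 1.32) were nearer to 0 than their SE, with overlapping groups. They show no direction.

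Between 10 and 6 weeks, 1 of the 6 was lower (Msln) and 1 higher (Wt1) at an adjusted p under 0.05, where 21.9% of all genes were lower and 23.6% higher. The study's threshold gave the same 2 genes against 7.65% lower and 18.6% higher. Between 8 and 6 weeks it gave Msln lower and Wt1 higher, against 1.42% and 8.4% of all genes. Between 10 and 8 weeks edgeR gave 0 lower (also 0 at an unadjusted p under 0.05, and 0 by DESeq2) and 1 higher (Krt19), against 2.83% and 11.1%. Each of these shares is 1 gene of 6, and Wt1 had passed the filter through the ages where it is high. Scaling to library totals in place of TMM moved the median of all genes by 0.245 between 12 and 4 weeks and by 0.214 between 10 and 6 weeks, and the share of lower genes among those called from 50.8% to 21.7% and from 48.1% to 16.7%. Msln was lower in both comparisons under either scaling, at -2.80 and -1.02 on the log2 scale with library totals.

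**Figure D3:**
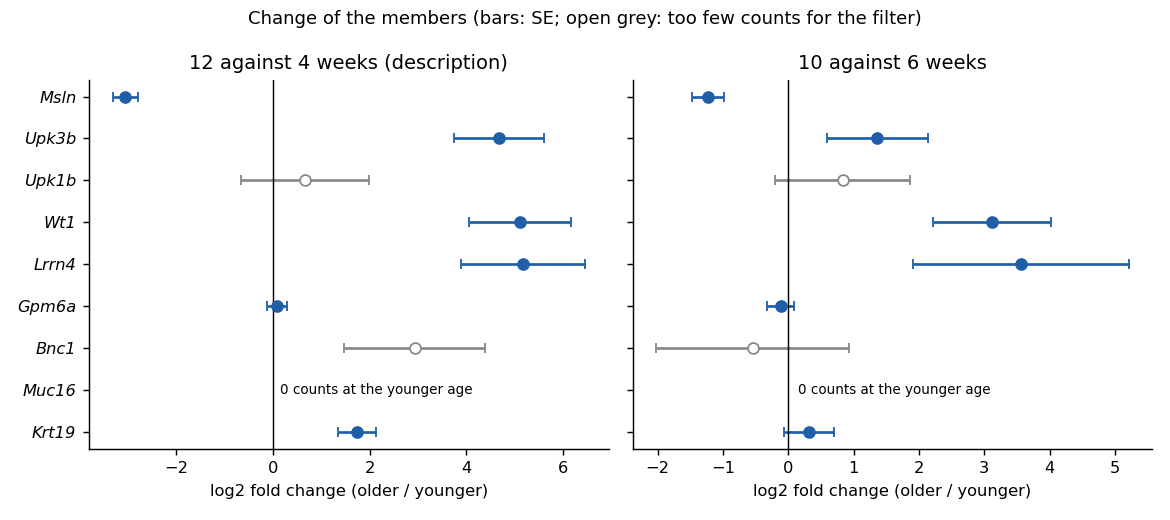
Log2 fold change (x axis, older over younger, bars for SE) of the 9 genes between 12 and 4 weeks, a description because that comparison chose Msln, and between 10 and 6 weeks. Open grey points are genes with too few counts for the filter and Muc16 has 0 counts at the younger age; Msln lies at -3.05 and -1.23, left of 0 in both panels, and Wt1 at 5.10 and 3.11.

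Within an age, no relation between Msln and the other 8 genes passed the test. For the low genes this depth could hardly show one: Muc16 had 0 counts in 11 of the 15 mice, Bnc1 and Lrrn4 in 7 each, and Upk1b had 0 to 6 counts. The correlation of deviations from the age means over 15 mice ran from r = -0.45 (Gpm6a) to 0.37 (Bnc1), and Spearman's rho from -0.33 (Gpm6a) to 0.46 (Upk3b). In an exact permutation test of mice within ages, two-sided and adjusted over the 8 genes, p ran from 0.597 to 0.944 for r and from 0.705 to 0.971 for rho, and the smallest unadjusted p was 0.157 for r and 0.113 for rho. Without the mice farthest from the median of Msln, replicate 2 of 6 weeks and replicate 3 of 10 weeks, r ran from -0.55 (Muc16) to 0.13 (Upk3b).

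Islet endocrine genes are the main transcripts of the sample, and their level was set beside Msln in each mouse. Of 12 endocrine genes, 10 fell between 4 and 12 weeks at an adjusted p under 0.05 (edgeR), among them the insulin genes Ins1 (log2 fold change -0.90) and Ins2 (-0.84) and glucagon, Gcg (-1.37), with a median of -0.87 over the list, where 27.2% of all genes were lower and the median was -0.05. Sst and Chgb, which did not pass, passed without replicate 1 of 12 weeks (-0.56, adjusted p = 0.0229, and -0.52, adjusted p = 0.00306, edgeR). Averaged over the 12 genes, log2 CPM was 12.29 ± 0.0543 (SD, n = 3) at 4 weeks and 11.39 ± 0.139 at 12 weeks, where Msln was 7.20 ± 0.246 and 4.14 ± 0.357.

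Relative to the endocrine list Msln was lower at 12 than at 4 weeks, a description since these ages chose Msln. Msln minus the list was -5.09 ± 0.248 at 4 weeks (log2, SD, n = 3), -5.74 ± 0.370 at 6 weeks, -6.42 ± 0.290 at 8 weeks, -6.28 ± 0.147 at 10 weeks and -7.25 ± 0.334 at 12 weeks. Between 6 and 10 weeks the difference changed by -0.53 (exact permutation p = 0.1, two-sided). This p is the smallest that 3 against 3 mice can give. The mice did not overlap, but narrowly: the lowest of 6 weeks was at -6.10 and the highest of 10 weeks at -6.13. Without replicate 2 of 6 weeks, a library with intestinal transcripts, the change was -0.34 (exact permutation p = 0.2). Between 6 and 8 weeks the difference changed by -0.68 (exact permutation p = 0.1) and between 8 and 10 weeks by 0.15 (exact permutation p = 0.5). With 3 mice an age this permutation test cannot reach a p under 0.05.

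**Figure D4:**
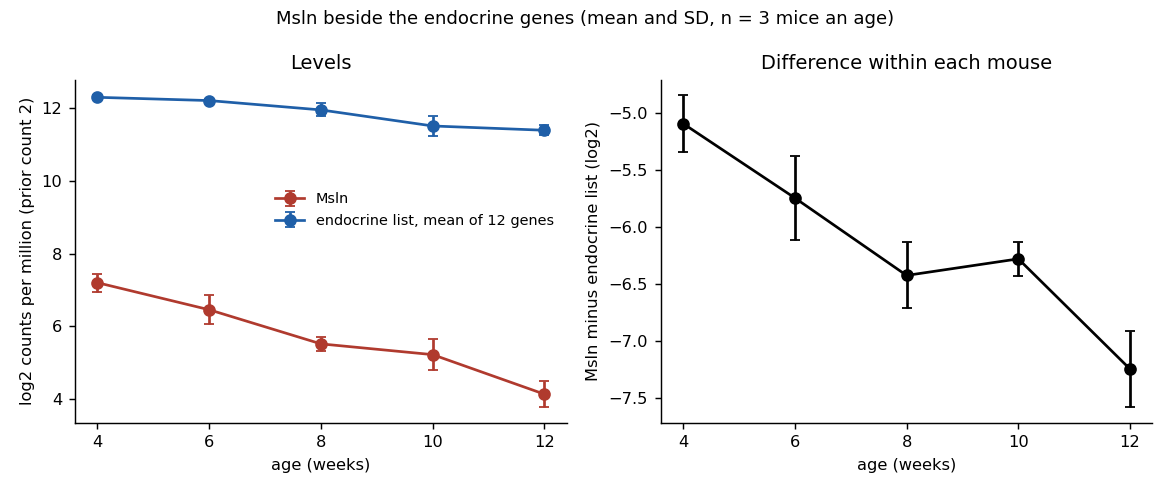
Left, mean log2 CPM (prior count of 2) of Msln and of 12 endocrine genes against age in weeks, and right, Msln minus the endocrine mean of the same mouse, with SD over 3 mice. Msln goes from 7.20 to 4.14 and the endocrine list from 12.29 to 11.39, and the difference from -5.09 at 4 weeks to -7.25 at 12 weeks.

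Other genes known from mesothelium moved both ways between 4 and 12 weeks. Of 15, 13 were tested, 4 fell and 8 rose at an adjusted p under 0.05 (edgeR), with a median log2 fold change of 1.49 against -0.05 over all genes, where 27.2% were lower and 26.3% higher. Genes near 0 at 4 weeks, such as Rspo1, passed the filter on low counts through the later ages, so nothing is read from this count or median. Over all 15 genes without the filter the median was 1.29, and 7 were higher and 4 lower at an adjusted p under 0.05 (edgeR). The largest increase was in Aldh1a2, an enzyme of retinoic acid synthesis (3.97, SE 0.555), which had 16, 5 and 8 counts at 4 weeks and 117, 134 and 295 at 12 weeks. Rspo1, a secreted Wnt enhancer, rose by 3.26 (SE 0.545) from 3, 1 and 4 counts to 25, 31 and 38. Pdpn, podoplanin, rose by 2.98 (SE 0.477) and Ildr2 by 2.41 (SE 0.281). These genes are also used by other cells, such as the stromal cells of lymphoid tissue for Pdpn, and the 6 lymph node stroma genes all rose too, with summed levels of 3.40 to 11.1 CPM at 4 weeks and 293 to 517 CPM at 12 weeks.

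Single libraries decided part of the remaining calls. Cldn15 (3.33, SE 0.95) and the transcription factor Gata4 (2.07, SE 0.560) were highest in replicate 1 of 12 weeks, the library with intestinal transcripts, with 455 and 156 counts against 36 to 61 and 32 to 43 in the other mice of that age. Without it they were at 1.40 (adjusted p = 0.119, edgeR) and 1.04 (adjusted p = 0.0518, edgeR), and without both libraries with intestinal transcripts at 1.40 (adjusted p = 0.0467, edgeR) and 1.04 (adjusted p = 0.0626, edgeR). Pkhd1l1 (1.49, adjusted p = 0.0475, edgeR) had 96 counts in replicate 3 of 12 weeks against 20 and 26 in the others, and was at 0.50 without that mouse (adjusted p = 0.439, edgeR) and did not pass without replicate 1 or 3 of 4 weeks (adjusted p = 0.151 and 0.115, edgeR). Nkain4 did not pass (1.29, adjusted p = 0.0675, edgeR) and did without replicate 1 of 12 weeks (adjusted p = 0.0217, edgeR) or replicate 1 of 4 weeks (adjusted p = 0.0225, edgeR). Ezr, ezrin, which links membranes to actin, rose by 0.87 (SE 0.116). Calb2 and Tbx18 had 0 to 4 counts in every mouse and were not tested.

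The 4 genes that fell were the keratins Krt7 (-0.76, SE 0.127), Krt8 (-0.56, SE 0.15) and Krt18 (-0.50, SE 0.113), and the transcription factor Gata6 (-0.44, SE 0.0887). With library totals in place of TMM, Krt7 alone of the 4 passed. Their levels at 4 weeks were 175 ± 16.1 CPM (SD, n = 3) for Krt7, 159 ± 1.05 for Krt8, 94.5 ± 8.99 for Krt18 and 17.8 ± 1.54 for Gata6, and Ezr, which rose, had 67.1 ± 3.896 CPM. Among duct genes, Tspan8 fell and Spp1 and Muc1 rose, and in the acinar list 0 of 12 passed between 12 and 4 weeks.

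Relatives of the 9 genes by family were split, also within a family: of the mucins tested, Muc4 fell and Muc1 rose. Of 17 relatives, 13 were tested, 8 fell and 3 rose between 4 and 12 weeks at an adjusted p under 0.05 (edgeR), with a median log2 fold change of -0.56, where 27.2% of all genes were lower and 26.3% higher. Krt7, Krt8 and Krt18 are counted here and among the other mesothelial genes. Mslnl, the mesothelin-like gene next to Msln, fell by 1.89 (SE 0.594) from 41, 39 and 46 counts to 14, 19 and 7, a call lost without replicate 3 of 12 weeks (adjusted p = 0.0724, edgeR). Upk3a, another uroplakin, fell by 1.59 (SE 0.443) from 42, 40 and 23 counts to 8, 14 and 20. Muc4, a membrane mucin, fell by 1.01 (SE 0.229), Lrrn1 by 0.84 (SE 0.153) and Lrrn3 by 0.59 (SE 0.158), while Muc1 (1.23, SE 0.289), Bnc2 (1.82, SE 0.443) and Gpm6b (2.47, SE 0.343) rose. Lrrn3, Krt8 and Krt18 did not pass with library totals in place of TMM. Upk3bl, the relative nearest in name to Upk3b, had 0 counts at 4 weeks and 0, 4 and 5 at 12 weeks.

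**Figure D5:**
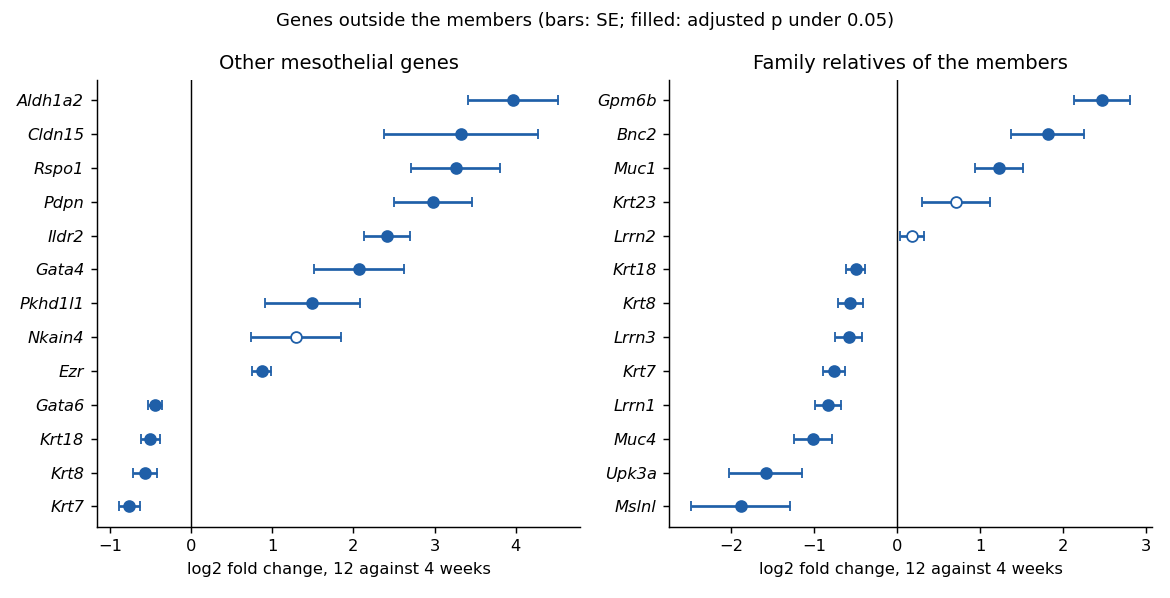
Log2 fold change between 12 and 4 weeks (x axis, bars for SE) of 13 other mesothelial genes and of 13 family relatives of the 9 genes, with filled points for an adjusted p under 0.05. On the left Gata6 and 3 keratins lie below 0 and the rest above 0, from 0.87 for Ezr to 3.97 for Aldh1a2, and on the right Mslnl lies lowest at -1.89.

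None of the other 5 genes tested was among those whose level followed Msln most closely, and Upk1b, Bnc1 and Muc16 were not ranked. Over the 15 mice the highest Pearson's r of log2 CPM with Msln was 0.97 for Rnf112, followed by Mid1ip1, Tmsb15b2, Arl2, Prdx2, Tmsb15b1, Hist3h2ba, Sdk1, Ubl4a and Jph4 (r = 0.96 for the last). The other 5 genes tested had r from -0.86 (Wt1) to -0.19 (Gpm6a), and the 12 endocrine genes had r from 0.31 (Chgb, rank 7152) to 0.94 (Gcg, rank 39). After subtracting each age mean, the highest r were 0.91 for Mast1 and 0.90 for Acd and Hira, followed by Kcnh3, Vsig10l, Grin2c, Gpr179, Slitrk1, Dcdc5 and Rpap1. Mslnl had r = 0.81 in this measure and ranked 57, and the endocrine genes had r from -0.25 (Chgb) to 0.71 (Scg2). These values describe 15 mice that share age and library scaling, and the genes were picked out of 16554 by the same values.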

How the data were processed

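Islet RNA of 15 NOD females was sequenced. Per the study's methods, poly(A)-enriched libraries were sequenced as 150-base pairs, trimmed, aligned and counted per gene in CLC Genomics Workbench with default settings, and the labels name mm10. Whether strand was used in counting is not given in the sources used here. The deposited counts are whole reads per gene with no normalization, and the TPM values were scaled by the authors to gene length and library. A further 30 per-sample columns (RPKM and CPM) were not used.

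Genes kept by filterByExpr (16554 of 48709) were scaled by TMM and fitted with edgeR 4.0.16 (glmQLFit, glmQLFTest) in R 4.3.3, with 1 mean per age over all 15 samples and Benjamini-Hochberg adjustment over all genes. A gene was called at an adjusted p under 0.05, or at the study's threshold (fold change of at least 1.5, unadjusted p under 0.05). Genes dropped by the filter were described from counts, with exact conditional intervals of 95% that hold counting error only. Log2 CPM used a prior count of 2. Alternatives were other scalings, no filter, DESeq2 1.42.0, a fit of the 2 ages compared, each mouse left out and a replicate block. Leaving out the 2 libraries with intestinal genes, and the counts of higher genes, were added after seeing the data. The 9 genes and all lists were chosen with earlier results of these data known. Named genes were the 9, those of the lists, and the 10 most correlated with Msln by each of 2 measures. Scripts were tested on simulated data. Python 3.11.15 was used for tables and figures. In the main fit, edgeR p-values set a change against the spread between mice of the same age, estimated over all 15 mice (3 an age). Some genes of the lists are not reported here.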

Additional observations from a re-analysis of the deposited data

How the results depend on the processing

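The decrease of Msln from 6 to 10 weeks kept its direction and its call under 13 of 13 alternatives (-1.47 to -0.99 on the log2 scale), and the count of lower genes stayed at 1 in each under both rules. The count of higher genes at an adjusted p under 0.05 (1) ran from 0 to 2 when a mouse was left out. At the study's threshold it was 2 with DESeq2's size factors, with library totals, without the filter, with DESeq2 and without the 2 libraries with intestinal genes, and 1 to 2 when a mouse was left out. The second gene was Upk3b without those libraries or without replicate 2 of 6 weeks, and Lrrn4 under the other settings named and without replicate 3 of 10 weeks. From 6 to 8 weeks the count of lower genes (1) was 2 with DESeq2 and in the fit of the 2 ages alone, with Krt19 as the second gene, and 1 to 2 when a mouse was left out. The other mesothelial genes lower at 12 weeks numbered 1 in place of 4 with library totals. Gpm6a between 6 and 10 weeks, never called, was at 0.10 with library totals and between -0.30 and 0.00091 when a mouse was left out. The causes were not tested beyond the change of scaling or samples itself.

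Replicate numbers 1 to 3 come from the labels, and mice of different ages are different animals. Correlations of the deviations of same-numbered mice (replicates 1 to 3) were -0.09, -0.04 and -0.38 for 6 and 10 weeks, 0.51, -0.12 and 0.49 for 6 and 8 weeks, -0.40, 0.09 and -0.44 for 8 and 10 weeks, and 0.03, 0.10 and -0.16 for 4 and 12 weeks. In no comparison did all 3 pairs deviate together, so the numbers were not taken as pairs. With the replicate block the change from 6 to 10 weeks was -1.22 for Msln (adjusted p = 0.00591) and 2.95 for Wt1 (adjusted p = 0.029), and the calls of Pkhd1l1 between 12 and 4 weeks (adjusted p = 0.087) and of Wt1 between 8 and 6 weeks (unadjusted p = 0.0684) were lost. No other call of the 9 genes in the mice of 6, 8 and 10 weeks, or of the other mesothelial genes between 12 and 4 weeks, changed under the block. For Upk1b, Bnc1 and Muc16, dropped by the filter, only the fit without it and DESeq2 were run, and Upk3b and Lrrn4 were dropped in the fit of 6 and 10 weeks alone. At 3 counts, 0.0754 to 0.128 CPM, depth limits what can be said of Upk1b, Bnc1 and Muc16 at every age, and of Upk3b, Wt1 and Lrrn4 at 4 weeks.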

Other observations

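Genes next to Msln on chromosome 17 were looked at after the values of Msln were known. Within 50 kb on either side lie 12 other genes, of which 9 were tested. Between 4 and 12 weeks 4 of them fell at an adjusted p under 0.05 (edgeR): Mslnl (-1.89), Rpusd1 (-0.83), Narfl (-0.39) and Fam173a (-0.39). Metrn, which encodes the secreted factor meteorin, rose (2.16). The median log2 fold change of the 9 was -0.58 against -0.05 over all genes, of which 27.2% were lower and 26.3% higher. Msln, with 29065 counts in all mice, was far above Mslnl with 402. Mslnl lies on the plus strand at chr17:25736040-25748330 and ends 283 bases before the end of Msln, which lies on the minus strand, so the 2 genes point towards each other, and reads from either that run past the end could not be told apart without strand.

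The intestinal transcripts noted in 2 libraries were high for some genes. Alpi, an intestinal alkaline phosphatase, had 461 counts in replicate 2 of 6 weeks and 3623 in replicate 1 of 12 weeks, and 0 in the other 13 mice. Krt20, an intestinal keratin, had 76 and 344 counts in the same libraries and at most 8 elsewhere. Msln did not stand apart in the same way in both: it was the highest of the mice of 6 weeks in the first, at 118 CPM, and the lowest of the mice of 12 weeks in the second, at 14.1 CPM.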
